A study of Homo sapiens with 12 samples.

Results

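The genes described here are 39 regulators of pre-mRNA splicing, chosen by a fixed list of names: 13 SR proteins and their TRA2 relatives, 21 heterogeneous nuclear ribonucleoproteins (hnRNPs, with PTBP1 among them), the SR-like protein RBM39 and the 4 CDC-like kinases CLK1 to CLK4. All 39 passed the filter on low counts, and they are 39 of the 33990 genes with a rounded count above 0. The RNA came from a human colorectal cancer line, HCT 116p53-/-, and from its stable sub-line uL3ΔHCT 116p53-/-, which the sample labels call RPL3 KO and the study's methods call silenced for uL3, the ribosomal protein encoded by RPL3. Cells of both lines received vehicle or 5 nM actinomycin D (Act D) for 24 h, with 3 libraries in each of the 4 groups, labelled as biological replicates. Both lines carry the genotype in the parental name, and the sources give 1 sub-line only, so that the silencing and any other difference between the sub-line and its parent cannot be told apart. The libraries are bulk samples, in which fewer cells of a type and less RNA per cell cannot be told apart.

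SR proteins bind exonic enhancers through RNA recognition motifs and recruit the splicing machinery through a domain rich in arginine and serine, whereas many hnRNPs bind exonic or intronic silencers and compete with them. CLK kinases phosphorylate the arginine-serine domain, which releases SR proteins from nuclear speckles. Members of these families commonly control their own amount by splicing a "poison" exon with an in-frame stop codon into their transcripts, which are then degraded by nonsense-mediated decay (NMD). Act D intercalates into DNA, and at a low dose it stops mainly RNA polymerase I.

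The total expected count was between 10087925 and 21138886 per library, and the members took 0.834 to 1.05% of it. RPL3 was not called lower in uL3Δ-labelled libraries: it was at 1151, 1121 and 1141 CPM (expected counts scaled to the size of the library as adjusted by edgeR's TMM factor) in HCT 116p53-/- cells with vehicle and at 1188, 1337 and 1202 CPM in uL3Δ-labelled libraries (log2 fold change 0.13 ± 0.08, edgeR adjusted p = 0.155, and log2 fold change -0.11 with library size alone, edgeR adjusted p = 0.299), so that the words "uL3Δ-labelled" are used throughout. Of the epithelial markers, CDH1 was at 64.3 to 76.6 CPM in HCT 116p53-/- libraries and at 0.00 to 0.70 CPM in those labelled uL3Δ, and CDX2 was at 14.2 to 23.5 and 0.10 to 0.34 CPM, while EPCAM and KRT8 were detected in all 12 libraries. Of the 6 markers tested, 5 were lower and KRT18 was higher in uL3Δ-labelled libraries with vehicle, and 5 of 6 mesenchymal markers were higher. Vehicle replicate 3 of HCT 116p53-/- cells and vehicle replicate 1 labelled uL3Δ each stood more than 15% beyond both other replicates for 13 of the 39 members, against at most 4 members in any other library. Transcripts of protein-coding genes took 63.6 to 80.4% of the counts and those of long non-coding RNA genes 2.01 to 17.8%, the latter at 17.8 and 13.8% in Act D replicates 2 and 3 labelled uL3Δ. The part of these library differences in the results was not tested.

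Poison exons were looked up for the 39 members in GENCODE release 44 on hg38, as internal exons that hold the stop codon of an annotated NMD transcript and that the gene's canonical transcript skips. There were 24 such exons in 15 members. They are shown for 6 SR genes whose counts changed with Act D in at least 1 line, from the first base of the exon to the stop codon, which is in capitals. The bases after the stop are annotated as untranslated and are not shown. In the canonical transcript each lies within an intron. The sequences are written 5′ to 3′ on the strand of the gene and lie at chr6:36599821-36599854 (plus strand, SRSF3), chr1:29166009-29166064 (minus strand, SRSF4), chr20:43459153-43459304 (plus strand, SRSF6), chr2:38749319-38749346 (minus strand, SRSF7), chr7:23522289-23522432 (minus strand, TRA2A) and chr3:185931772-185931852 (minus strand, TRA2B).
SRSF3: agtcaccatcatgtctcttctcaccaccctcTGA
SRSF4: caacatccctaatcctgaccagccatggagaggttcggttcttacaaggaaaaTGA
SRSF6: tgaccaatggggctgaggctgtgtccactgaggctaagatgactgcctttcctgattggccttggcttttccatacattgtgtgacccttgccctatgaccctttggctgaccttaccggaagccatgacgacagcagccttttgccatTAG
SRSF7: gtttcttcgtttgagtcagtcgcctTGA
TRA2A: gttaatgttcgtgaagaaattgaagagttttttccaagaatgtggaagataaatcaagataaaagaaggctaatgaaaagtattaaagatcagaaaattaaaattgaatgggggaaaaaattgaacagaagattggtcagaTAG
TRA2B: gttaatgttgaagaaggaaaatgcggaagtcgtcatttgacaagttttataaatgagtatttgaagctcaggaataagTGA
The exons of the paralogs TRA2A and TRA2B share their first 9 bases.

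How much of each gene's RNA was assigned to the annotated NMD transcript with such an exon could be read in a single library. This was vehicle replicate 2 of HCT 116p53-/- cells, whose values were deposited per transcript, so that no comparison with Act D was possible for that share. Transcripts of other classes that may hold the same exon were not counted. The TRA2B transcript with the exon above held 30.6% of the gene's TPM, RSEM's length-scaled abundance of transcripts, and 30.4% of its 2916 counts (95% Wilson interval 28.8 to 32.1%). For SRSF3 (5311 counts) the transcript held 4.31% of the counts (3.80 to 4.89%), for SRSF7 5.48% (4.73 to 6.34%), for SRSF6 1.21% (0.954 to 1.53%) and for SRSF4 0.376% (0.124 to 1.07%). For TRA2A it was at 0 of 732 counts (0 to 0.522%). These intervals cover counting error only, not the division of reads between overlapping transcripts by RSEM.

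Over all annotated classes, NMD transcripts held 10% or more of the TPM in 12 of the 39 members (30.8%) in that library, beside 1705 of 13022 protein-coding genes (13.1%). The highest shares of TPM were 42.2% for SRSF8, a close relative of SRSF2, 40.7% for HNRNPA1, a repressor of splice sites, 30.6% for TRA2B, 27.3% for SRSF1, 23.4% for HNRNPD, which binds AU-rich elements, 19.4% for HNRNPLL and 19.2% for HNRNPU. Short transcripts weigh more in TPM than in reads: the NMD class held 6.92% of the counts of SRSF8 and 8.49% of those of SRSF1, but 33.2% of those of HNRNPA1. Transcripts with a retained intron held 33.6% of the TPM of HNRNPL, 25.4% of HNRNPH1, 24.9% of RBM39 and 19.1% of SRSF3. Among the kinases, NMD and retained-intron transcripts together held 28.2% of the TPM of CLK3, 27.0% of CLK1 and 25.4% of CLK4, and CLK2 had 0 in both classes. HNRNPA0 and HNRNPH2 had 1 transcript each and HNRNPF 7, with all TPM in the coding class.

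**Figure D1:**
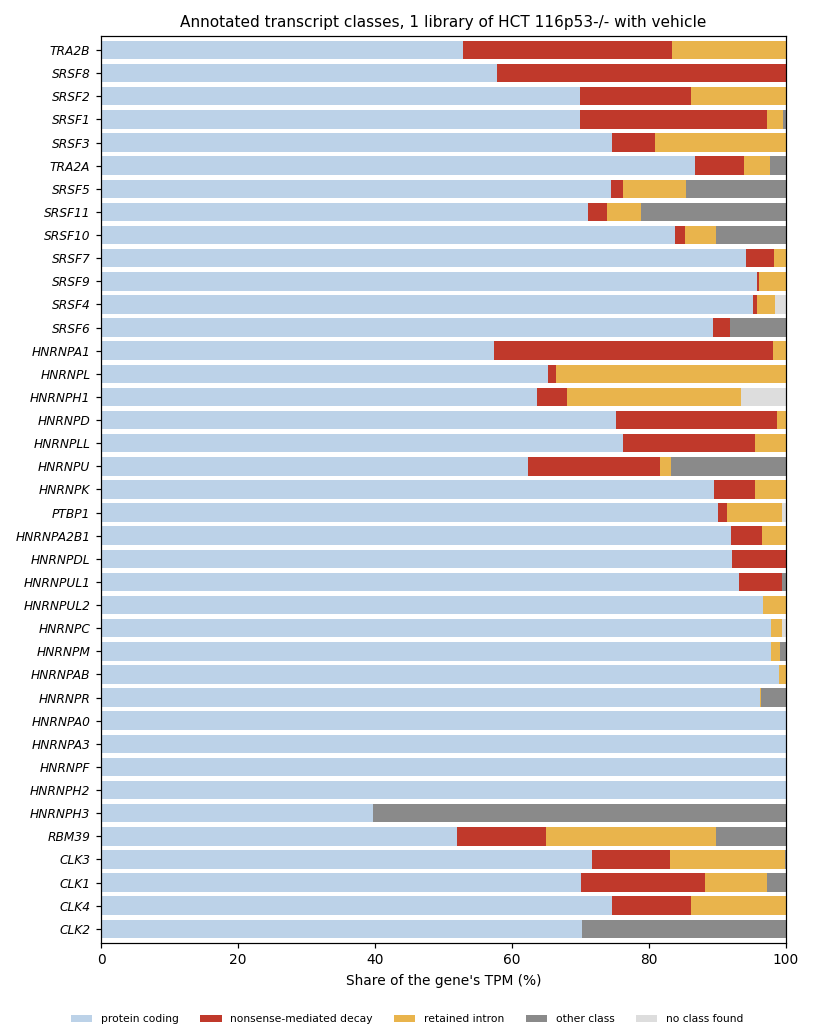
Share of each member's TPM, in percent, held by each annotated transcript class in vehicle replicate 2 of HCT 116p53-/- cells, the library deposited per transcript, with members grouped as SR proteins, hnRNPs, RBM39 and CLK kinases. NMD transcripts, in red, reach 42.2% for SRSF8 and 40.7% for HNRNPA1, and retained introns, in yellow, 33.6% for HNRNPL.

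On the TPM scale, which divides by transcript length and so allows genes to be compared, the members spanned from a median over the 12 libraries of 5.63 TPM for CLK4 to 475 TPM for HNRNPA1. HNRNPC, which binds uridine tracts, came next at 352 TPM, and these 2 genes were the highest of the members in each of the 12 libraries, while the gene that followed them differed between libraries. Among SR genes SRSF2, SRSF3, SRSF7, TRA2B and SRSF1 had medians between 121 and 158 TPM and SRSF8 had the lowest, 7.86 TPM. Of the kinases, CLK3 had 32.2, CLK1 15.8 and CLK2 7.22 TPM. Neighbours in this order mostly overlapped over the libraries: HNRNPK (98.8 to 221 TPM), HNRNPU (96.4 to 191 TPM) and HNRNPH1 (112 to 199 TPM) could not be ordered, whereas the ranges of HNRNPA1 (336 to 578 TPM) and HNRNPA2B1 (121 to 199 TPM) did not touch. TRA2A (23.1 to 41.4 TPM in HCT 116p53-/- libraries) and TRA2B (83.5 to 123 TPM) were apart in that line, and further apart in uL3Δ-labelled libraries, at 12.8 to 16.4 and 122 to 187 TPM.

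**Figure D2:**
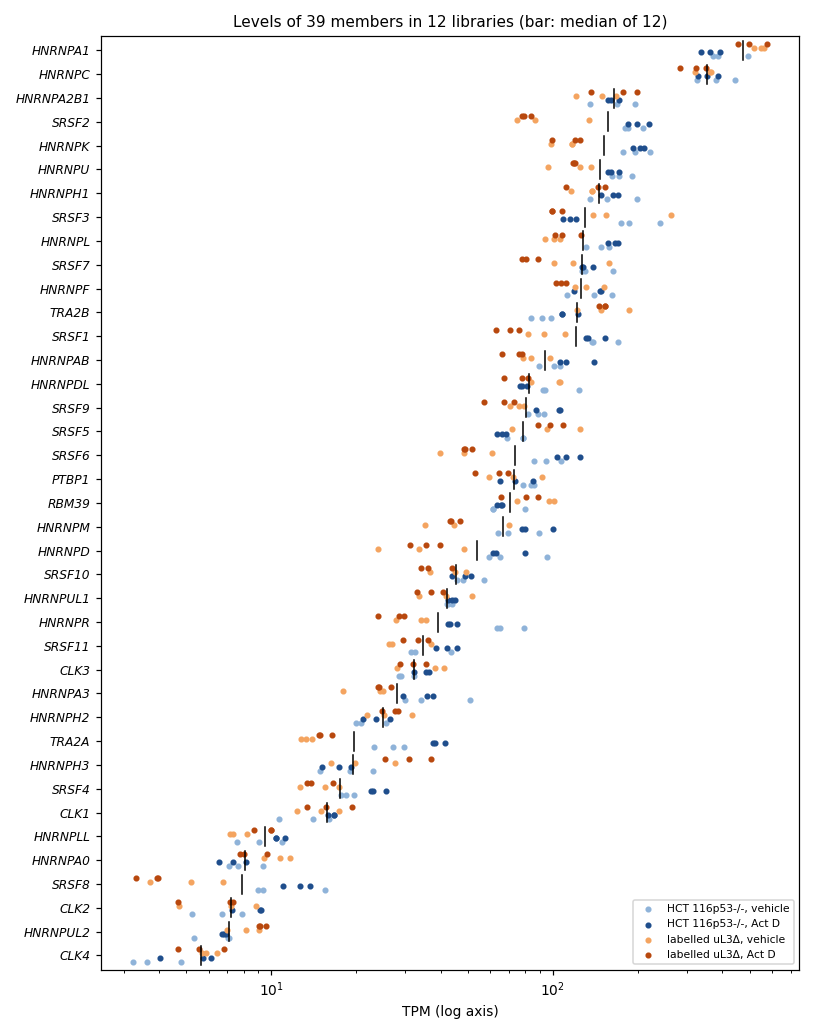
Level of each member in TPM (log axis) in each of the 12 libraries, coloured by group, with a black bar at the median of the 12. Members are ordered by that median, from CLK4 at the bottom (5.63 TPM) to HNRNPA1 at the top (475 TPM).

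The first comparison asked how the members responded to Act D in each line. In HCT 116p53-/- cells SRSF3 fell by 35.2% and HNRNPR by 31.8%, while TRA2A rose 1.49-fold, CLK4 1.36-fold and SRSF4 1.32-fold. In uL3Δ-labelled libraries SRSF3 fell by 35.1% and SRSF7 by 26.6%, and HNRNPH3 rose 1.49-fold. Expression was tested with edgeR's quasi-likelihood test on rounded expected counts, with Benjamini-Hochberg adjustment over the 15692 genes tested and a threshold of 0.05. Fold changes are log2 values ± SE, each from 3 against 3 libraries.

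In HCT 116p53-/- cells 11 of the 39 members were called (28.2%), beside 18.7% of all genes tested, and 28 were not. Of the 11, 8 rose (7.59% of all genes) and 3 fell (11.1%). By family, 5 of 13 SR genes rose and SRSF3 fell, 2 of 21 hnRNP genes rose and 2 fell, and of the kinases CLK4 rose. The groups did not overlap in CPM for 18 members, or 46.2%, beside 38.2% of all genes. The median log2 fold change was 0.052 over the members and 0.018 over all genes. In uL3Δ-labelled libraries 9 members were called (23.1%), beside 11.9% of all genes: 4 rose (3.51% of all genes) and 5 fell (8.4%). SRSF6, HNRNPH3, HNRNPLL and HNRNPUL2 rose, and SRSF3, SRSF7, SRSF8, HNRNPDL and RBM39 fell. The groups did not overlap for 16 members, or 41%, beside 27.6% of all genes, and the median was -0.00088 over the members and 0.029 over all genes. SRSF3, SRSF6 and HNRNPDL were called in both lines, each in the same direction, which is 27.3% of the calls in HCT 116p53-/- cells and 33.3% of those in uL3Δ-labelled libraries, and 22 members were called in neither. The split of the calls depended on the scaling: with library size alone in place of TMM factors, which shifted the all-gene median by -0.099 in each line, 2 members rose and 5 fell in HCT 116p53-/- cells (2 and 3 of the SR genes, 0 and 2 of the hnRNP genes), beside 3.51% and 14.7% of all genes. In uL3Δ-labelled libraries 1 rose and 9 fell in that scaling (0 and 5 of the SR genes, 1 and 3 of the hnRNP genes), beside 1.45% and 11.8% of all genes. In HCT 116p53-/- cells the count of 11 was 5 without vehicle replicate 2 or without Act D replicate 2, and 7 without vehicle replicate 3 or without Act D replicate 1. In uL3Δ-labelled libraries the count of 9 was 3 without Act D replicate 1, 4 without vehicle replicate 3 or Act D replicate 3, 5 without vehicle replicate 2 or Act D replicate 2, and 6 without vehicle replicate 1. Over all genes the counts of 2939 and 1869 ran from 1833 to 3389 and from 1272 to 1869 with a library left out. The share of counts from mitochondrial genes lay higher with Act D in every library of both lines, at 10.5 to 12.1% against 7.98 to 9.51% in HCT 116p53-/- cells and 7.10 to 9.83% against 4.57 to 6.28% in uL3Δ-labelled libraries, and its part in these results was not tested.

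**Figure D3:**
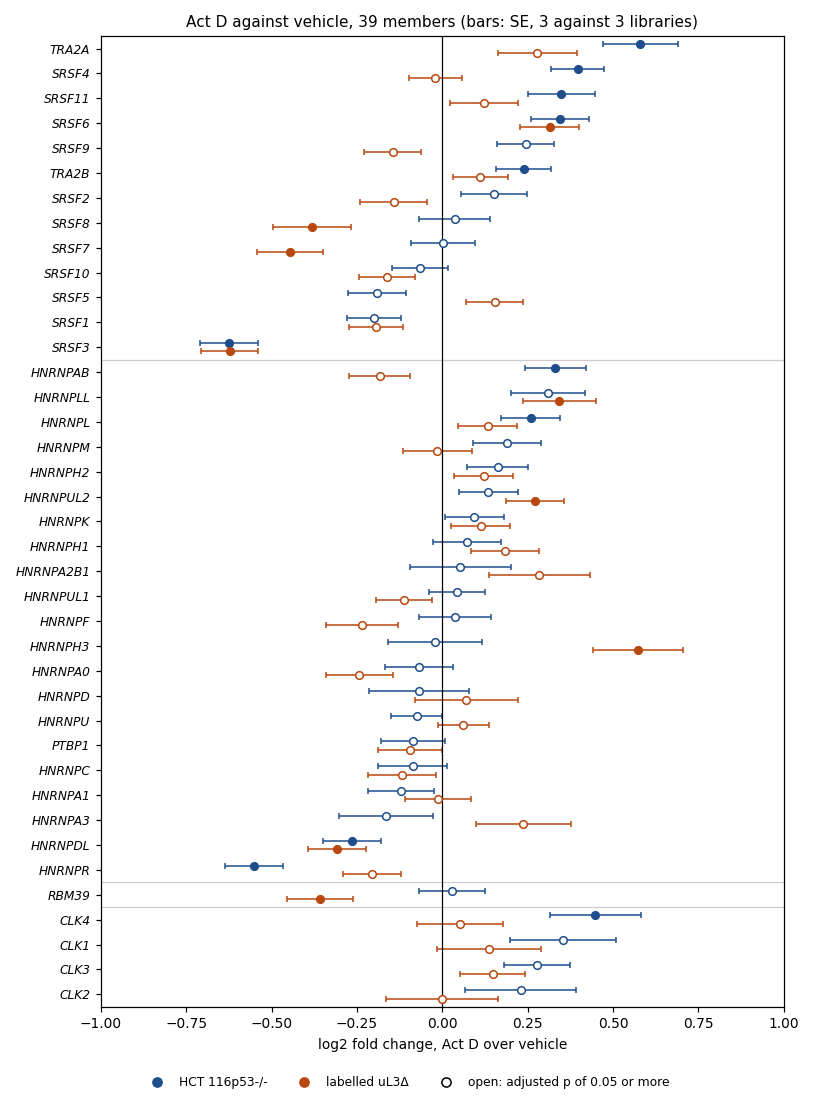
Log2 fold change of Act D over vehicle for each of the 39 members in HCT 116p53-/- cells (blue) and in uL3Δ-labelled libraries (orange), with SE bars, and filled points where edgeR's adjusted p was under 0.05. SRSF3 lies at -0.63 and -0.62, and HNRNPH3, SRSF7 and RBM39 have filled points only in orange, with the difference between the lines tested separately.

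Gene positions are those of GENCODE release 44 on hg38. Among the SR genes SRSF3 (ENSG00000112081, chr6:36594353-36605600, plus strand), which acts in splicing, polyadenylation and mRNA export, was at 395, 366 and 363 CPM with vehicle and at 239, 235 and 254 CPM with Act D in HCT 116p53-/- cells. In uL3Δ-labelled libraries it was at 482, 484 and 397 CPM with vehicle and at 293, 293 and 298 CPM with Act D. All Act D libraries were below all vehicle libraries of their line. SRSF3 fell in HCT 116p53-/- cells (log2 fold change -0.63 ± 0.08, edgeR adjusted p = 5.21e-05) and in uL3Δ-labelled libraries (log2 fold change -0.62 ± 0.08, edgeR adjusted p = 0.000106), and both calls held in all 17 alternatives run.

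SRSF6 (ENSG00000124193, chr20:43457893-43466046, plus strand), an enhancer-binding SR protein, was at 423, 388 and 401 CPM with vehicle and 505, 522 and 512 CPM with Act D in HCT 116p53-/- cells. It was at 273, 253 and 243 CPM with vehicle and 281, 324 and 351 CPM with Act D in uL3Δ-labelled libraries. The treated and untreated groups were separate in both lines, and the Act D libraries labelled uL3Δ spread more widely than the others. It rose in HCT 116p53-/- cells (log2 fold change 0.34 ± 0.09, edgeR adjusted p = 0.00857) and in uL3Δ-labelled libraries (log2 fold change 0.31 ± 0.09, edgeR adjusted p = 0.0228). The first call ended only with library size alone (edgeR adjusted p = 0.0752, the highest of 17 alternatives, the lowest being 0.000708). The second ended with library size alone (log2 fold change 0.20), with no filter on low counts, and without vehicle replicate 2 or 3, Act D replicate 2 or 3, or HCT 116p53-/- Act D replicate 3, with edgeR and DESeq2 adjusted p between 0.00449 and 0.197 over the alternatives.

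TRA2A (ENSG00000164548, chr7:23504780-23532041, minus strand) and TRA2B (ENSG00000136527, chr3:185914558-185938103, minus strand) are SR-like activators that bind purine-rich enhancers. TRA2A was at 52.5, 50.4 and 61.8 CPM with vehicle and 80.3, 78.1 and 88.1 CPM with Act D in HCT 116p53-/- cells, without overlap (log2 fold change 0.58 ± 0.11, edgeR adjusted p = 0.00106, called in all 17 alternatives). It was at 29.4, 39.3 and 35.1 CPM with vehicle and 38.0, 44.5 and 44.4 CPM with Act D in uL3Δ-labelled libraries, with overlap (log2 fold change 0.28 ± 0.12, edgeR adjusted p = 0.133). Its paralog TRA2B was at 218, 201 and 180.2 CPM with vehicle and 244, 224 and 239 CPM with Act D in HCT 116p53-/- cells and at 434, 469 and 457 CPM with vehicle and 477, 491 and 502 CPM with Act D in uL3Δ-labelled libraries. Its groups were separate in both lines, and it rose in HCT 116p53-/- cells by a small margin (log2 fold change 0.24 ± 0.08, edgeR adjusted p = 0.0498), whereas the test was not passed in uL3Δ-labelled libraries (log2 fold change 0.11 ± 0.08, edgeR adjusted p = 0.424). The call held in 5 of 17 alternatives. It was lost by leaving out each of 9 libraries in turn (all but HCT 116p53-/- vehicle replicate 1, uL3Δ-labelled vehicle replicate 1 and uL3Δ-labelled Act D replicate 2), with no filter, with the replicate block and with library size alone, where the log2 fold change was 0.14, and the edgeR and DESeq2 adjusted p ran from 0.0174 to 0.338 over the alternatives.

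SRSF4 (ENSG00000116350, chr1:29147743-29181900, minus strand), an SR protein with a long arginine-serine domain, was at 56.6, 56.6 and 55.3 CPM with vehicle and 69.0, 75.8 and 77.2 CPM with Act D in HCT 116p53-/- cells. It was at 63.5, 61.2 and 64.2 CPM with vehicle and 63.4, 58.9 and 63.8 CPM with Act D in uL3Δ-labelled libraries. The groups were separate in HCT 116p53-/- cells (log2 fold change 0.40 ± 0.08, edgeR adjusted p = 0.00151, called in all 17 alternatives) and overlapped in uL3Δ-labelled libraries (log2 fold change -0.02 ± 0.08, edgeR adjusted p = 0.907). SRSF7 (ENSG00000115875, chr2:38743599-38751494, minus strand), an SR protein with a zinc knuckle that also acts in mRNA export, was at 232, 209.9 and 199 CPM with vehicle and 219, 208 and 214 CPM with Act D in HCT 116p53-/- cells and at 288, 257 and 249.8 CPM with vehicle and 173, 189 and 222 CPM with Act D in uL3Δ-labelled libraries. It fell in the latter, without overlap (log2 fold change -0.45 ± 0.10, edgeR adjusted p = 0.0047, called in all 17 alternatives), and overlapped in HCT 116p53-/- cells (log2 fold change 0.0019 ± 0.09, edgeR adjusted p = 0.994).

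SRSF1, an SR protein that activates splicing through exonic enhancers, was at 634, 568 and 559.9 CPM with vehicle and 515, 490.1 and 528 CPM with Act D in HCT 116p53-/- cells and at 406, 439 and 431 CPM with vehicle and 360.3, 395 and 360.1 CPM with Act D in uL3Δ-labelled libraries. Every Act D library was below every vehicle library of its line, but neither difference passed the test (-0.20 ± 0.08, edgeR adjusted p = 0.0849 and -0.19 ± 0.08, edgeR adjusted p = 0.123). With library size alone SRSF1 was called lower in both lines (edgeR adjusted p = 0.0198 and 0.0259). SRSF11, a divergent SR protein of nuclear speckles, was at 130.1, 118 and 114 CPM with vehicle and 148, 153 and 160.0 CPM with Act D in HCT 116p53-/- cells and rose there without overlap (log2 fold change 0.35 ± 0.10, edgeR adjusted p = 0.0188), a call lost without vehicle replicate 2 or 3, without Act D replicate 2 or 3 and with library size alone (edgeR and DESeq2 adjusted p from 0.00235 to 0.103 over 17 alternatives). SRSF8 was at 20.2, 19.3 and 21.0 CPM with vehicle and 14.1, 14.3 and 18.2 CPM with Act D in uL3Δ-labelled libraries and fell there without overlap (log2 fold change -0.38 ± 0.11, edgeR adjusted p = 0.0378), a call lost by leaving out each of 6 libraries in turn (uL3Δ-labelled vehicle replicates 1 and 3, uL3Δ-labelled Act D replicates 1 and 2, HCT 116p53-/- Act D replicates 1 and 2) and with the replicate block, with edgeR and DESeq2 adjusted p from 0.00845 to 0.161. SRSF9, also an SR protein, was at 116, 114 and 117 CPM with vehicle and 142, 142 and 127 CPM with Act D in HCT 116p53-/- cells, without overlap and just short of the threshold (log2 fold change 0.24 ± 0.08, edgeR adjusted p = 0.0508). It was at 124, 149 and 143 CPM with vehicle and 129.5, 127 and 119.7 CPM with Act D in uL3Δ-labelled libraries (log2 fold change -0.15 ± 0.08, edgeR adjusted p = 0.3). SRSF2, SRSF5 and SRSF10 had log2 fold changes from -0.19 to 0.15 in HCT 116p53-/- cells and from -0.16 to 0.15 in uL3Δ-labelled libraries, and none of the 3 was called in either line by edgeR with TMM factors. With library size alone SRSF5 was called lower in HCT 116p53-/- cells (edgeR adjusted p = 0.0367). In that scaling SRSF10 was called lower in uL3Δ-labelled libraries (edgeR adjusted p = 0.0474).

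**Figure D4:**
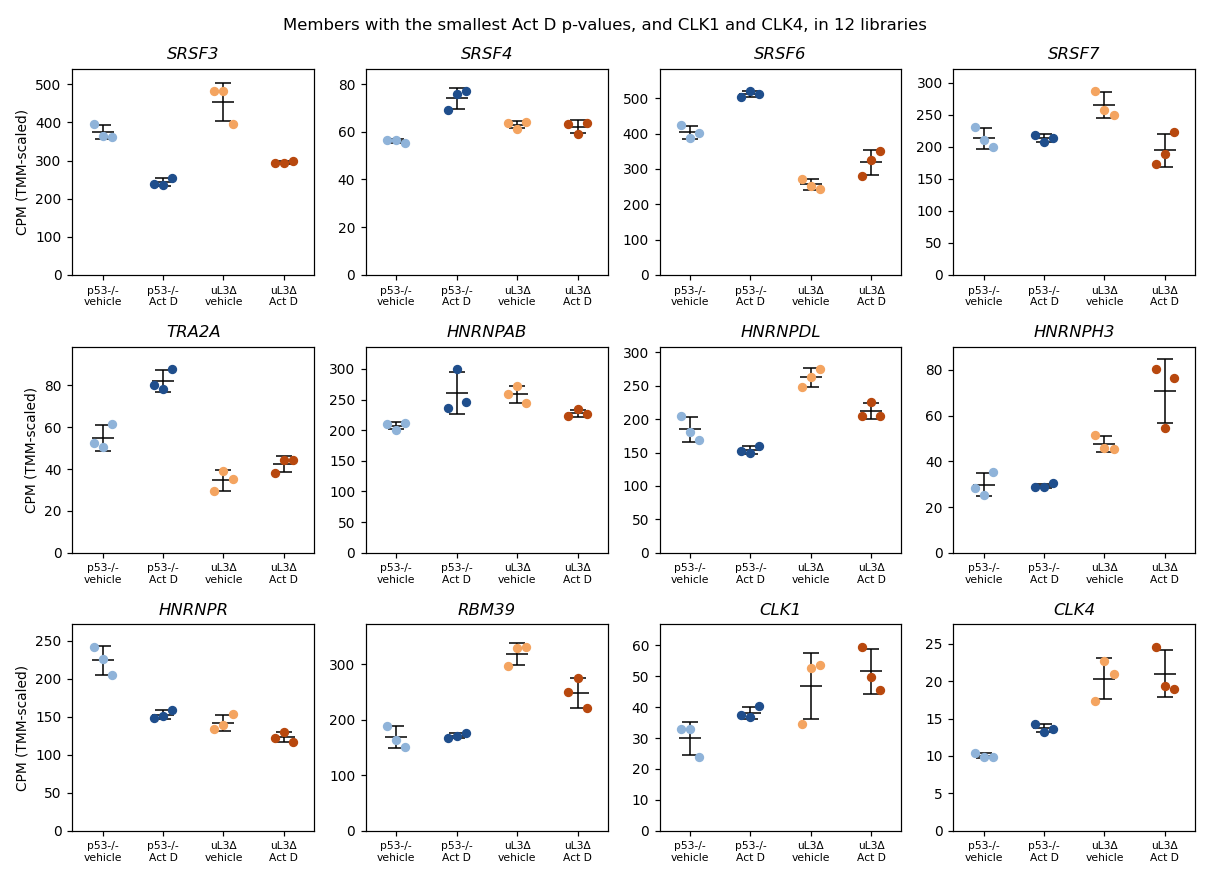
TMM-scaled CPM of 12 members in each of the 12 libraries (points), with the mean and SD of each group of 3 in black, for the members with the smallest p-values for Act D and for CLK1 and CLK4. The Act D libraries of SRSF3 lie at 235 to 298 CPM, under the vehicle libraries, which lie at 363 to 484 CPM.

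Among the hnRNP genes HNRNPR (ENSG00000125944, chr1:23303771-23344336, minus strand), an mRNA-binding protein of the hnRNP Q family, was at 242, 225 and 205 CPM with vehicle and 148, 151 and 159 CPM with Act D in HCT 116p53-/- cells. It was at 134, 138 and 154 CPM with vehicle and 122, 129.8 and 117 CPM with Act D in uL3Δ-labelled libraries. The groups were separate in both lines. The fall passed the test in HCT 116p53-/- cells (log2 fold change -0.55 ± 0.08, edgeR adjusted p = 0.000162, called in all 17 alternatives) and not in uL3Δ-labelled libraries (log2 fold change -0.21 ± 0.09, edgeR adjusted p = 0.133). With library size alone the fall was called in the latter as well (edgeR adjusted p = 0.0306).

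HNRNPDL, a relative of the AU-rich element binding protein HNRNPD, was at 205, 180.5 and 169 CPM with vehicle and 152, 149 and 159.7 CPM with Act D in HCT 116p53-/- cells and at 248, 263 and 276 CPM with vehicle and 205, 226 and 204 CPM with Act D in uL3Δ-labelled libraries, without overlap in either line. It fell in HCT 116p53-/- cells (log2 fold change -0.27 ± 0.09, edgeR adjusted p = 0.0365) and in uL3Δ-labelled libraries (log2 fold change -0.31 ± 0.08, edgeR adjusted p = 0.0234). The first call was lost by leaving out each of 6 libraries in turn (HCT 116p53-/- vehicle replicates 1 and 2, its Act D replicates 1 to 3 and uL3Δ-labelled Act D replicate 3), with no filter and with the replicate block, and the second without uL3Δ-labelled vehicle replicate 2 or 3 or uL3Δ-labelled Act D replicate 1 or 3. Over the 17 alternatives the edgeR and DESeq2 adjusted p reached 0.182 (lowest 0.00818) for the first and 0.0837 (lowest 0.00438) for the second.

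HNRNPAB (ENSG00000197451, chr5:178204533-178211163, plus strand), which binds RNA and single-stranded DNA, was at 209.7, 200.5 and 212 CPM with vehicle and 236, 300.5 and 246 CPM with Act D in HCT 116p53-/- cells, where it rose (log2 fold change 0.33 ± 0.09, edgeR adjusted p = 0.0145). It was at 259, 272 and 245 CPM with vehicle and 222, 234 and 226 CPM with Act D in uL3Δ-labelled libraries, where the order was the other way round, again without overlap, but the test was not passed (log2 fold change -0.18 ± 0.09, edgeR adjusted p = 0.207). The first call was lost without vehicle replicate 2, without Act D replicate 2, which was the highest of its group, and with library size alone (edgeR and DESeq2 adjusted p from 0.00162 to 0.14). HNRNPH3 (ENSG00000096746, chr10:68331174-68343193, plus strand), of the hnRNP H/F family that binds runs of guanine, was at 28.5, 25.3 and 35.3 CPM with vehicle and 29.0, 28.5 and 30.4 CPM with Act D in HCT 116p53-/- cells, with overlap (log2 fold change -0.023 ± 0.14, edgeR adjusted p = 0.94). It was at 51.4, 45.9 and 45.4 CPM with vehicle and 80.5, 54.6 and 76.5 CPM with Act D in uL3Δ-labelled libraries, without overlap (log2 fold change 0.57 ± 0.13, edgeR adjusted p = 0.00775), a call lost only without Act D replicate 1 (edgeR adjusted p = 0.0587, the highest of 17 alternatives, with 7.91e-05 the lowest).

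The other hnRNP calls were weaker. HNRNPL, which binds CA repeats, rose in HCT 116p53-/- cells, from 214, 223 and 229 CPM to 268, 264 and 265 CPM (log2 fold change 0.26 ± 0.09, edgeR adjusted p = 0.045), a call lost by leaving out each of the 6 libraries of that line or uL3Δ-labelled vehicle replicate 3 in turn. It was also lost with no filter, with the replicate block and with library size alone, where its log2 fold change was 0.16. Its paralog HNRNPLL rose in uL3Δ-labelled libraries, from 27.3, 36.0 and 35.9 CPM to 39.3, 43.3 and 43.9 CPM (log2 fold change 0.34 ± 0.11, edgeR adjusted p = 0.0468) and was short of the threshold in HCT 116p53-/- cells (log2 fold change 0.31 ± 0.11, edgeR adjusted p = 0.054). HNRNPUL2, a relative of the nuclear scaffold protein HNRNPU, rose in uL3Δ-labelled libraries, from 75.3, 71.8 and 75.9 CPM to 89.6, 88.0 and 91.3 CPM (log2 fold change 0.27 ± 0.08, edgeR adjusted p = 0.045). The calls of HNRNPLL and HNRNPUL2 were each lost by leaving out each of 10 of the 12 libraries in turn, and only uL3Δ-labelled vehicle replicates 2 and 3 for HNRNPLL and HCT 116p53-/- vehicle replicates 2 and 3 for HNRNPUL2 could be left out. Both were also lost with no filter, with the replicate block and with library size alone, where the log2 fold change was 0.24 for HNRNPLL and 0.17 for HNRNPUL2. Over the alternatives the edgeR and DESeq2 adjusted p reached 0.325 (lowest 0.0132) for HNRNPL, 0.182 (0.0305) for HNRNPLL and 0.345 (0.0228) for HNRNPUL2. The 14 hnRNP genes called in neither line included those with the highest TPM, HNRNPA1 (-0.12 ± 0.10 and -0.014 ± 0.10), HNRNPC (-0.087 ± 0.10 and -0.12 ± 0.10) and HNRNPA2B1 (0.052 ± 0.15 and 0.28 ± 0.15), and also PTBP1, which is known to repress exons beside pyrimidine tracts (-0.086 ± 0.09 and -0.095 ± 0.09). HNRNPH1, known to bind guanine-rich intron sequence of the RPL3 transcript, was at 0.072 ± 0.10 and 0.18 ± 0.10, and HNRNPA0, HNRNPA3, HNRNPD, HNRNPF, HNRNPH2, HNRNPK, HNRNPM, HNRNPU and HNRNPUL1 had log2 fold changes from -0.17 to 0.19 in HCT 116p53-/- cells and from -0.24 to 0.24 in uL3Δ-labelled libraries. With library size alone HNRNPF was called lower in uL3Δ-labelled libraries (edgeR adjusted p = 0.039).

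RBM39 (ENSG00000131051, chr20:35701347-35742312, minus strand), a U2AF-related protein with an arginine-serine domain, was at 189.5, 164 and 151 CPM with vehicle and 167, 171 and 175 CPM with Act D in HCT 116p53-/- cells, with overlap (log2 fold change 0.028 ± 0.10, edgeR adjusted p = 0.889). It was at 296, 329 and 332 CPM with vehicle and 250.2, 275 and 221 CPM with Act D in uL3Δ-labelled libraries, where all Act D libraries were lower (log2 fold change -0.36 ± 0.10, edgeR adjusted p = 0.0202). That call was lost without vehicle replicate 2 or 3 or Act D replicate 1 or 3 (edgeR and DESeq2 adjusted p from 0.00108 to 0.0781 over 17 alternatives).

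The 4 kinases had low CPM in all libraries, and CLK4 (ENSG00000113240, chr5:178602664-178630615, minus strand) was at 10.4, 9.85 and 9.90 CPM with vehicle and 14.3, 13.3 and 13.6 CPM with Act D in HCT 116p53-/- cells, without overlap (log2 fold change 0.45 ± 0.13, edgeR adjusted p = 0.026), and at 17.4, 22.7 and 21.0 CPM with vehicle and 24.7, 19.4 and 19.0 CPM with Act D in uL3Δ-labelled libraries, with overlap (log2 fold change 0.051 ± 0.13, edgeR adjusted p = 0.852). Its call was lost without vehicle replicate 2 or 3, without Act D replicate 1 or 2 and with library size alone (edgeR and DESeq2 adjusted p from 0.0137 to 0.127). CLK1, whose own splicing responds to its activity, was at 33.1, 32.8 and 23.9 CPM with vehicle and 37.3, 36.9 and 40.5 CPM with Act D in HCT 116p53-/- cells, where all Act D libraries lay above the vehicle libraries but the test was not passed (log2 fold change 0.35 ± 0.16, edgeR adjusted p = 0.129). It was at 34.7, 52.5 and 53.7 CPM with vehicle and 59.6, 49.7 and 45.6 CPM with Act D in uL3Δ-labelled libraries, with overlap (log2 fold change 0.14 ± 0.15, edgeR adjusted p = 0.627).

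CLK3 was at 42.5, 47.9 and 46.4 CPM with vehicle and 56.9, 56.8 and 51.9 CPM with Act D in HCT 116p53-/- cells, also without overlap and short of the threshold (log2 fold change 0.28 ± 0.10, edgeR adjusted p = 0.0553), and at 67.2, 73.1 and 74.5 CPM with vehicle and 89.5, 69.3 and 78.6 CPM with Act D in uL3Δ-labelled libraries (log2 fold change 0.15 ± 0.10, edgeR adjusted p = 0.359). CLK2 was at 14.8, 13.8 and 18.7 CPM with vehicle and 16.7, 18.1 and 20.8 CPM with Act D in HCT 116p53-/- cells (log2 fold change 0.23 ± 0.16, edgeR adjusted p = 0.37) and at 20.7, 18.7 and 24.3 CPM with vehicle and 21.4, 16.0 and 26.2 CPM with Act D in uL3Δ-labelled libraries (log2 fold change -0.00088 ± 0.16). In both lines its groups overlapped. None of the 4 kinases was called in uL3Δ-labelled libraries by edgeR or by DESeq2, and 0 had an unadjusted p under 0.05 there.

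Whether the response to Act D differed between the lines was tested as an interaction, the log2 response in uL3Δ-labelled libraries minus that in HCT 116p53-/- cells. It was called for 2 of 39 members (5.13%), beside 6.53% of all genes (3.3% positive and 3.23% negative), and both were negative: HNRNPAB (-0.51 ± 0.13, edgeR adjusted p = 0.02), which rose in HCT 116p53-/- cells and lay under all vehicle values in the Act D libraries labelled uL3Δ, and SRSF4 (-0.42 ± 0.11, edgeR adjusted p = 0.0306), which rose in HCT 116p53-/- cells and overlapped in uL3Δ-labelled libraries. The edgeR and DESeq2 adjusted p ran from 0.00135 to 0.061 for HNRNPAB and from 0.00909 to 0.0794 for SRSF4 over 17 alternatives. The difference for SRSF4 was lost with library size alone, with no filter, with the replicate block and by leaving out each of 6 libraries in turn (HCT 116p53-/- vehicle replicates 2 and 3, its Act D replicates 2 and 3, uL3Δ-labelled vehicle replicate 3 and uL3Δ-labelled Act D replicate 1), and that for HNRNPAB without HCT 116p53-/- vehicle replicate 2, its Act D replicate 2 or uL3Δ-labelled Act D replicate 1. The count of 2 was 0 without any of these last 3, 1 without HCT 116p53-/- vehicle replicate 3 or uL3Δ-labelled vehicle replicate 3, 4 without HCT 116p53-/- vehicle replicate 1 or uL3Δ-labelled Act D replicate 2 or 3, and 6 with DESeq2 in place of edgeR. Over all genes the count of 1025 ran from 614 to 979 with a library left out and was 1289 with DESeq2. Next were SRSF7 (-0.45 ± 0.13, edgeR adjusted p = 0.0555) and SRSF9 (-0.39 ± 0.12, edgeR adjusted p = 0.0589), neither of which passed the threshold. The difference for HNRNPH3 was 0.60 ± 0.19, edgeR adjusted p = 0.0711. It was 0.35 ± 0.12 for HNRNPR, -0.39 ± 0.14 for RBM39, -0.30 ± 0.16 for TRA2A and -0.40 ± 0.18 for CLK4, with edgeR adjusted p of 0.0942, 0.101, 0.287 and 0.224 in that order. For SRSF3 it was 0.0022 ± 0.12. No difference between the lines was called for any other member in the main edgeR fit, with TMM factors, the low-count filter, all 12 libraries and no replicate block. Of the 17 alternatives, run with edgeR or DESeq2, SRSF7 was called in 4. SRSF9, HNRNPH3 and RBM39 were called in 3 each and SRSF8 in 1.

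RSEM also gives each gene a mean transcript length weighted by the abundance of its transcripts, which moves when the balance of transcripts moves and was available for all 12 libraries. By limma on the log2 length, 0 of 37 members with a varying length were called for Act D in either line, beside 0.132% of 13601 genes in HCT 116p53-/- cells and 0.103% in uL3Δ-labelled libraries. No other tool was run on lengths. The smallest adjusted p was for RBM39 in uL3Δ-labelled libraries, whose mean length was 1924, 2150.1 and 2000.5 bases with vehicle and 1814, 1761 and 1714 bases with Act D (log2 difference -0.20 ± 0.04, limma adjusted p = 0.179). All 3 Act D libraries were shorter, while in HCT 116p53-/- cells the lengths were 2056, 2032 and 2005 bases with vehicle and 2052, 2061 and 2034 bases with Act D. SRSF6 was next, at 2849.8, 3024 and 2851 bases with vehicle and 3235, 3554 and 3278 bases with Act D in uL3Δ-labelled libraries (0.21 ± 0.05, limma adjusted p = 0.269).

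Between the lines the lengths were described without a test. In 6 of the 37 members, or 16.2%, the 6 libraries of a line did not overlap with the 6 of the other, beside 6.54% of 13601 genes. SRSF11 had 2534 to 2980 bases in HCT 116p53-/- libraries and 1958 to 2298 in those labelled uL3Δ, and TRA2A had 1597 to 1731 and 1502 to 1558 bases. HNRNPA2B1, HNRNPA3, HNRNPR and PTBP1 were likewise shorter in uL3Δ-labelled libraries, HNRNPA3 by the most bases among them, with medians of 3484 and 3154.

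The levels of the members differed between the lines far more often than with Act D, as did those of most genes. TRA2B was 2.27-fold and CLK4 2.03-fold higher in uL3Δ-labelled libraries with vehicle, RBM39, HNRNPA0 and HNRNPA1 were 1.9, 1.88 and 1.86-fold higher, and SRSF8, TRA2A, HNRNPR and SRSF6 were 39.9, 36.7, 36.6 and 36.6% lower. With vehicle 32 of 39 members were called (82.1%), beside 71.3% of all genes, 22 of them higher (35.1% of all genes) and 10 lower (36.2%). With Act D 29 were called (74.4%), beside 70.4% of all genes, 18 higher (35.1%) and 11 lower (35.3%). Of these, 24 were called in both comparisons in the same direction, 16 higher and 8 lower, which is 75% of the calls with vehicle and 82.8% of those with Act D. The groups did not overlap for 32 members with vehicle, beside 72.5% of all genes, and for 31 with Act D, beside 74.1%. HNRNPL and PTBP1 were called in neither.

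The balance of the directions depended on the scaling. With library size alone, which shifted the all-gene median by -0.24 in each comparison between the lines, 12 members were higher and 12 lower with vehicle, beside 26.8% and 44.4% of all genes, and 11 were higher and 17 lower with Act D, beside 27% and 43.5%. The members' median log2 difference exceeded that of all genes by 0.30 with vehicle in both scalings and by 0.21 and 0.20 with Act D: it was 0.28 against -0.021 with vehicle and 0.19 against -0.020 with Act D in the TMM scaling, and 0.04 against -0.26 and -0.066 against -0.26 with library size alone. Of the 16 members higher in both comparisons, 11 were also called higher in both with library size alone (all but CLK1, HNRNPC, HNRNPLL, HNRNPUL1 and SRSF3), none changed sign, and all 8 that were lower stayed called. With a library left out, 27 of the 32 calls with vehicle and 23 of the 29 with Act D were kept whichever library it was. With vehicle the call of HNRNPA3 was lost without HCT 116p53-/- vehicle replicate 3, that of SRSF9 without uL3Δ-labelled vehicle replicate 2, and that of CLK2 without HCT 116p53-/- vehicle replicate 1 or 2 or uL3Δ-labelled vehicle replicate 3, while HNRNPLL was lost by leaving out 7 of the libraries in turn and HNRNPU by leaving out 10 of them, and both with no filter and with the replicate block. With Act D the call of HNRNPH1 was lost without HCT 116p53-/- Act D replicate 3, HNRNPC without that or uL3Δ-labelled Act D replicate 2, and HNRNPD without that or uL3Δ-labelled Act D replicate 1. HNRNPUL1 was lost without uL3Δ-labelled Act D replicate 1 or 3, CLK1 without HCT 116p53-/- Act D replicate 1 or 2 or uL3Δ-labelled Act D replicate 1, and HNRNPLL without HCT 116p53-/- Act D replicate 1 or 3 or uL3Δ-labelled Act D replicate 2 or 3. HNRNPUL1 and HNRNPLL were lost there with no filter as well. Of these calls, those of HNRNPA3, HNRNPU and HNRNPD held with library size alone. The lines also differed in the summed level of the markers, with 2479 to 2812 CPM over 6 epithelial markers in HCT 116p53-/- libraries and 1591 to 1982 CPM in those labelled uL3Δ, and 45.1 to 80.7 and 2512 to 2831 CPM over 6 mesenchymal markers. CDH1 was at 0 in Act D replicate 3 labelled uL3Δ, and the part of these markers in the differences was not tested.

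**Figure D5:**
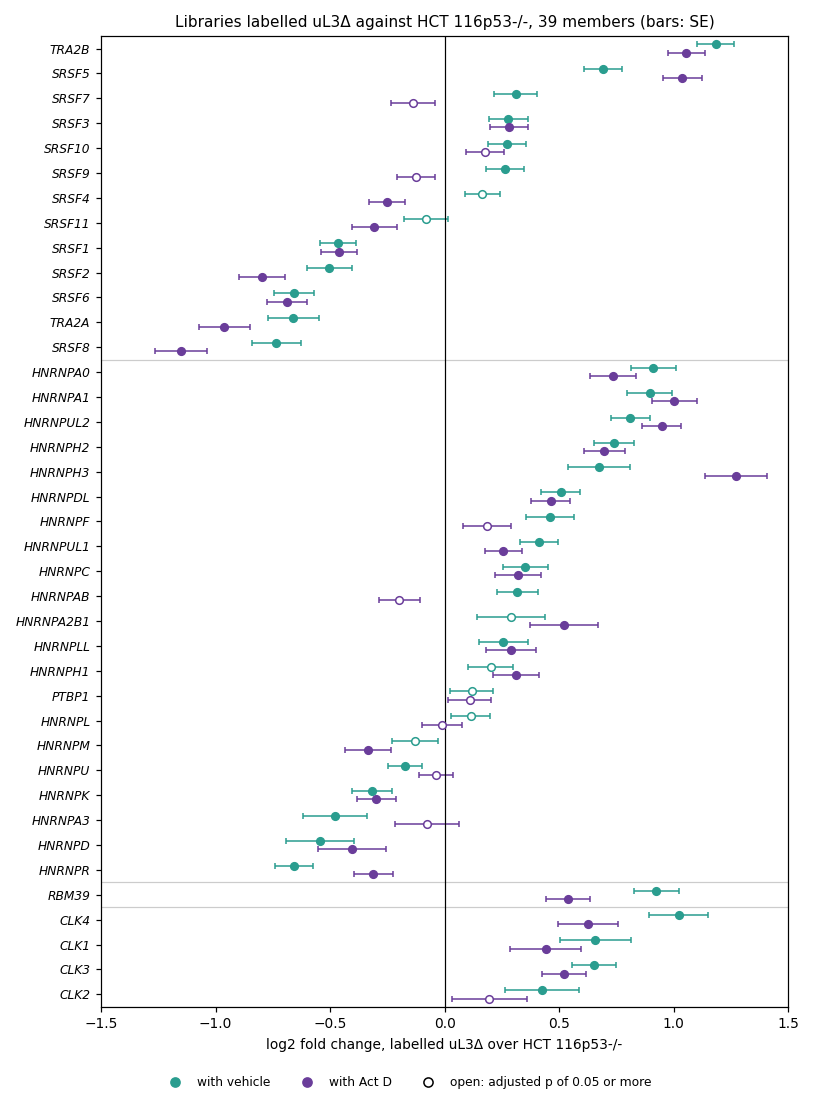
Log2 fold change of uL3Δ-labelled libraries over HCT 116p53-/- libraries for each of the 39 members, with vehicle (green) and with Act D (purple), with SE bars, and filled points where edgeR's adjusted p was under 0.05. TRA2B lies at 1.18 and 1.06 and CLK4 at 1.02 and 0.62, and SRSF8 lies lowest, at -0.73 and -1.15.

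Among the SR genes TRA2B had the smallest p of all members in both comparisons. It was at 180.2 to 244 CPM over the 6 HCT 116p53-/- libraries and at 434 to 502 CPM over the 6 labelled uL3Δ, with the values of each library given above (log2 fold change 1.18 ± 0.08, edgeR adjusted p = 4.63e-10 with vehicle, 1.06 ± 0.08 with Act D). TRA2A went the other way, at 50.4 to 88.1 and 29.4 to 44.5 CPM (log2 fold change -0.66 ± 0.11, edgeR adjusted p = 4.08e-05 with vehicle and -0.96 ± 0.11 with Act D). SRSF5, an SR protein related to SRSF4 and SRSF6, was at 107, 112 and 96.7 CPM in HCT 116p53-/- cells and 182, 165 and 163 CPM in uL3Δ-labelled libraries with vehicle, and at 95.3, 95.0 and 86.0 CPM in HCT 116p53-/- cells and 177, 196 and 195 CPM in uL3Δ-labelled libraries with Act D. Its lines were separate under both treatments (log2 fold change 0.69 ± 0.08, edgeR adjusted p = 7.99e-07 with vehicle, 1.04 ± 0.08, edgeR adjusted p = 5.03e-09 with Act D).

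SRSF1, SRSF2, SRSF6 and SRSF8 were lower in uL3Δ-labelled libraries under both treatments. The log2 fold change was -0.47 ± 0.08 with vehicle and -0.46 ± 0.08 with Act D for SRSF1, and -0.66 ± 0.09 and -0.69 ± 0.09 for SRSF6. SRSF2, which acts at exonic enhancers, had 396 to 484 CPM in HCT 116p53-/- libraries and 248 to 338 CPM in those labelled uL3Δ. SRSF8 had 30.7 to 35.5 CPM in HCT 116p53-/- libraries and 14.1 to 21.0 CPM in those labelled uL3Δ. Neither overlapped between the lines. SRSF3 was higher in uL3Δ-labelled libraries under both treatments (0.28 ± 0.08 and 0.28 ± 0.08), although with Act D its level there, 293 to 298 CPM, lay under the 363 to 395 CPM of HCT 116p53-/- cells with vehicle. SRSF7, SRSF9 and SRSF10 were called higher with vehicle and not with Act D, and SRSF4 and SRSF11 were called lower with Act D and not with vehicle. For SRSF4 the interaction given above tests that difference, which in the main edgeR fit was not called for SRSF7, SRSF9, SRSF10 or SRSF11.

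Among the hnRNP genes HNRNPA1 (ENSG00000135486, chr12:54280193-54287088, plus strand) was at 799, 722 and 626 CPM in HCT 116p53-/- cells and 1197, 1453 and 1344 CPM in uL3Δ-labelled libraries with vehicle, and at 689, 645 and 639.8 CPM in HCT 116p53-/- cells and 1411, 1252 and 1292 CPM in uL3Δ-labelled libraries with Act D. No library of a line reached the range of the other (log2 fold change 0.90 ± 0.10, edgeR adjusted p = 2.07e-07 with vehicle, 1.00 ± 0.10, edgeR adjusted p = 5.32e-08 with Act D). HNRNPA0, an intronless relative that binds AU-rich RNA, was at 81.9, 87.1 and 106 CPM in HCT 116p53-/- cells and 166, 180.1 and 172 CPM in uL3Δ-labelled libraries with vehicle (log2 fold change 0.91 ± 0.10, edgeR adjusted p = 1.99e-07) and at 84.7, 95.5 and 82.7 CPM in HCT 116p53-/- cells and 158, 135 and 145 CPM in uL3Δ-labelled libraries with Act D (log2 fold change 0.74 ± 0.10, edgeR adjusted p = 3.48e-06). Both were separate between the lines. HNRNPUL2 (ENSG00000214753, chr11:62712630-62727457, minus strand) was at 42.8, 37.5 and 46.6 CPM in HCT 116p53-/- cells and 75.3, 71.8 and 75.9 CPM in uL3Δ-labelled libraries with vehicle (log2 fold change 0.81 ± 0.09, edgeR adjusted p = 1.37e-07) and at 45.7, 48.1 and 45.7 CPM in HCT 116p53-/- cells and 89.6, 88.0 and 91.3 CPM in uL3Δ-labelled libraries with Act D (log2 fold change 0.95 ± 0.09, edgeR adjusted p = 2.16e-08). It shares exons with a read-through gene, and RSEM's posterior SD reached 5.35% of its count, the highest of the members.

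HNRNPH2 was higher in uL3Δ-labelled libraries under both treatments (0.74 ± 0.09 with vehicle and 0.70 ± 0.09 with Act D), and so was HNRNPH3 (0.68 ± 0.13 and 1.27 ± 0.14), as were HNRNPC, HNRNPDL, HNRNPLL, HNRNPUL1 and HNRNPUL2. HNRNPR, HNRNPK, which binds cytosine-rich tracts, and HNRNPD were lower: the log2 fold change with vehicle and with Act D was -0.66 ± 0.08 and -0.31 ± 0.09 for HNRNPR, -0.32 ± 0.09 and -0.30 ± 0.09 for HNRNPK, and -0.54 ± 0.15 and -0.40 ± 0.15 for HNRNPD. HNRNPD reached 151 CPM in vehicle replicate 3 of HCT 116p53-/- cells, against 102 and 103 in the others. HNRNPA3 and HNRNPU were called lower and HNRNPAB and HNRNPF higher with vehicle only, and HNRNPM was called lower and HNRNPH1 and HNRNPA2B1 higher with Act D only, of which the interaction was called for HNRNPAB.

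RBM39 was separate between the lines under both treatments, with the CPM values given above (log2 fold change 0.92 ± 0.10, edgeR adjusted p = 1.19e-07 with vehicle, 0.54 ± 0.10, edgeR adjusted p = 8.04e-05 with Act D). All 4 kinases were higher in uL3Δ-labelled libraries with vehicle, without overlap, on the log2 scale CLK4 by 1.02 ± 0.13, CLK1 by 0.66 ± 0.15, CLK3 by 0.65 ± 0.10 and CLK2 by 0.43 ± 0.16 (edgeR adjusted p = 0.0253, the highest of the 4). Of all genes 35.1% were called higher with vehicle, and for 72.5% the groups did not overlap in either direction. With Act D CLK4, CLK3 and CLK1 were higher (0.62 ± 0.13, 0.52 ± 0.10 and 0.44 ± 0.15), beside 35.1% of all genes. CLK2 did not pass the test there (log2 fold change 0.20 ± 0.16, edgeR adjusted p = 0.301). With library size alone 3 of the kinases were called higher with vehicle (26.8% of all genes) and 2 with Act D (27%).

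Other splicing genes were read from the same fit in 3 lists, and as for the members and all genes their calls shifted towards lower ones with library size alone. Of 56 core spliceosome genes, 8 rose and 3 fell with Act D in HCT 116p53-/- cells (19.6% called, beside 18.7% of all genes) and 1 rose and 4 fell in uL3Δ-labelled libraries (8.93%, beside 11.9%). With library size alone 0 rose and 3 fell in the former and 0 rose and 7 fell in the latter. Of all genes 3.51% rose and 14.7% fell in the former with that scaling, and 1.45% rose and 11.8% fell in the latter. DHX15, a helicase that disassembles the spliceosome, fell in both (-0.37 ± 0.07 and -0.50 ± 0.07), under all 17 alternatives. Between the lines with vehicle 22 were higher and 11 lower in uL3Δ-labelled libraries (58.9% called, beside 71.3% of all genes). With library size alone 15 were higher and 25 lower, beside 26.8% and 44.4% of all genes. The differences ran from PRPF8, the central scaffold of the spliceosome (-1.15 ± 0.12), to BUD31, another spliceosome component (1.51 ± 0.09). Of 57 other splicing regulators 55 were tested: 8 rose and 10 fell in HCT 116p53-/- cells (32.7%, beside 18.7% of all genes) and 1 rose and 6 fell in uL3Δ-labelled libraries (12.7%, beside 11.9%). With library size alone 3 rose and 11 fell in the former and 0 rose and 12 fell in the latter. CELF1, which binds GU-rich RNA, fell in both (-0.53 ± 0.08 and -0.69 ± 0.08), and the muscleblind genes MBNL2 and MBNL1 fell in HCT 116p53-/- cells (-0.68 ± 0.12 and -0.59 ± 0.10). Between the lines with vehicle 19 were higher and 20 lower (70.9% called, beside 71.3% of all genes). With library size alone 10 were higher and 29 lower, beside 26.8% and 44.4% of all genes. The epithelial splicing regulators ESRP2 and ESRP1 were at 50.9 to 58.9 and 46.8 to 62.5 CPM in HCT 116p53-/- libraries and at 0.14 to 0.91 and 6.35 to 11.3 CPM in those labelled uL3Δ (-7.72 ± 0.20 and -2.96 ± 0.12 with vehicle), and QKI, which regulates splicing and the formation of circular RNA, was lower as well (-4.26 ± 0.26). MBNL2 went the other way with vehicle, at 45.4, 38.9 and 40.8 CPM in HCT 116p53-/- cells and 120, 168 and 160 CPM in uL3Δ-labelled libraries.

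The last list held other kinases of SR proteins, with phosphatases and importers, of which 21 of 22 were tested. With Act D 2 rose and 3 fell in HCT 116p53-/- cells (23.8% called, beside 18.7% of all genes) and 2 rose and 5 fell in uL3Δ-labelled libraries (33.3%, beside 11.9%), or 1 and 4 and 1 and 8 with library size alone. SRPK2, an SR protein kinase that acts mainly in the cytoplasm, was at 33.5, 38.3 and 34.3 CPM with vehicle and 17.3, 18.5 and 20.9 CPM with Act D in HCT 116p53-/- cells (log2 fold change -0.91 ± 0.11, edgeR adjusted p = 2.18e-05). It was at 30.7, 32.9 and 34.4 CPM with vehicle and 32.4, 28.0 and 24.9 CPM with Act D in uL3Δ-labelled libraries (log2 fold change -0.19 ± 0.11, edgeR adjusted p = 0.301). Its response differed between the lines by the interaction test (0.71 ± 0.16, edgeR adjusted p = 0.0118). Its paralog SRPK1 fell in HCT 116p53-/- cells (-0.44 ± 0.09) and was not called in uL3Δ-labelled libraries (-0.085 ± 0.09). The interaction was called for 5 of the 21 genes (23.8%, beside 6.53% of all genes). It was positive for 1 of them, SRPK2 (3.3% of all genes), and negative for 4 (3.23%), or 1 and 3 with library size alone. For SRPK1 it was not called. DYRK1A, a kinase related to the CLK family, was at 81.4, 76.9 and 70.6 CPM with vehicle and 60.0, 60.3 and 62.3 CPM with Act D in HCT 116p53-/- cells (log2 fold change -0.33 ± 0.08, edgeR adjusted p = 0.0113, lost without vehicle replicate 1 or Act D replicate 1) and at 80.6, 83.4 and 81.9 CPM with vehicle and 36.4, 43.4 and 38.3 CPM with Act D in uL3Δ-labelled libraries (log2 fold change -1.06 ± 0.09, edgeR adjusted p = 1.97e-06). Its fall was the larger in the latter by the interaction test (-0.74 ± 0.12, edgeR adjusted p = 0.00158). DYRK3 rose in both (0.59 ± 0.12 and 0.51 ± 0.11).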

How the data were processed

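Libraries from total RNA of 12 samples were analysed, 3 in each of 4 groups. The authors trimmed the reads, removed those of ribosomal RNA and other contaminants, and assigned the rest to human Ensembl genes on hg38 with RSEM 1.2.25. The tables they deposited give per gene an expected count, TPM, a mean transcript length in bases and the posterior SD of the count. Vehicle replicate 2 of HCT 116p53-/- cells was deposited per transcript, with the percent of the gene's abundance held by each transcript as given by the authors. Its counts and TPM were summed per gene here, and its length was weighted by TPM. RSEM was run with standard parameters, which do not use strand, so reads of a gene and an antisense gene that overlaps it cannot be told apart. Columns of samples of other series numbered 0.

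Expected counts were rounded. Genes passing filterByExpr (15692 of 33990) were fitted over all 12 libraries with edgeR 4.0.16 (quasi-likelihood test, TMM factors 0.847 to 1.15) in R 4.3.3. CPM are TMM-scaled, and the SE is the log2 fold change divided by the square root of F. Log2 mean lengths were tested with limma 3.58.1 (13601 genes). The alternatives were DESeq2 1.42.0, library size alone, no filter, a replicate block, each library left out and, for members, the counts of their named pseudogenes added. The fits were tested on simulated data. With a spread common to all genes, edgeR called 46 of 100 genes changed by a log2 fold change of 0.5. It called 100 of 100 changed by 1. Tables were joined with Python 3.11 and pandas 2.3.3.

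The members and the lists of other splicing genes were chosen with earlier results of these data known. Values in every library are given for the 6 members with the smallest p in each Act D comparison, the 4 with the smallest p in each other comparison, the kinases, SRSF1, SRSF3 and TRA2B. SRSF8, SRSF11, HNRNPL and HNRNPLL were added after their values were seen. From the lists, called genes among the 3 of largest log2 fold change were eligible, with ESRP1, ESRP2 and RPL3 in any case. Replicate numbers come from the sample titles. The p-values measure the spread between these libraries, which may in part be technical. RSEM's posterior SD was at most 1% of the count for 37 members, and named pseudogenes took at most 1.59% of a member's summed count.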

Additional observations from a re-analysis of the deposited data

Results flagged for a closer look

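For 2 of 39 members (5.13%, beside 6.53% of all genes) the response to Act D differed between the lines by the interaction test. For HNRNPAB the log2 response in uL3Δ-labelled libraries minus that in HCT 116p53-/- cells was -0.51, and for SRSF4 it was -0.42. HNRNPAB went from 200.5 to 212 CPM with vehicle to 236 to 300.5 CPM with Act D in HCT 116p53-/- cells, and from 245 to 272 CPM to 222 to 234 CPM in uL3Δ-labelled libraries. SRSF4 went from 55.3 to 56.6 CPM to 69.0 to 77.2 CPM in HCT 116p53-/- cells and stayed between 58.9 and 64.2 CPM in uL3Δ-labelled libraries.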

How the results depend on the processing

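With library size alone 7 members were called for Act D in HCT 116p53-/- cells, beside 2860 of all genes (2939 with TMM factors). It left 1 member (HNRNPAB) called for the difference of the responses, beside 757 of all genes (1025 with TMM factors). With DESeq2 6 members were called for that difference and with the replicate block 1, beside 1289 and 722 of all genes. With each library left out in turn, the counts ran from 5 to 15 in HCT 116p53-/- cells, 3 to 8 in uL3Δ-labelled libraries, 0 to 4 for the difference, 29 to 33 between the lines with vehicle and 26 to 29 with Act D. Those over all genes ran from 1833 to 3389, 1272 to 1869, 614 to 979, 10677 to 11394 and 10520 to 11364, in the same order. Without HCT 116p53-/- vehicle replicate 2 or Act D replicate 2, or uL3Δ-labelled Act D replicate 1, no difference of the responses was called for a member. The other counts of members under no filter, DESeq2, library size alone, the replicate block and added pseudogenes stayed within 1.5 times the reported ones, and no named call changed direction in any alternative run. The count of members with a changed length was 0 and RPL3 was not called under every alternative run for them.

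The replicate numbers share only a number: deviations of same-numbered libraries correlated between -0.21 and 0.14, and the block moved the calls to 8 in HCT 116p53-/- cells, 6 in uL3Δ-labelled libraries, and 30 and 29 between the lines with vehicle and with Act D. Over all genes the calls with the block were 2469, 1502, 10964 and 10818, in the same order. At 10087925 to 21138886 counts per library and with 3 libraries per group, small changes can go uncalled.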
